A study of Mus musculus with 6 samples.

Results

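The genes described are 9 nerve and glia genes: Sncg, Th, Dbh, Prph, Nefl, Nefm, Sox10, Cdh19 and Mbp. They were taken as every probe set (the group of probes that reads 1 transcript on the array) whose only gene symbol in the platform annotation is 1 of these names, which gave 24 of the 45101 probe sets in the table. The set was chosen by its log2 signals in these same arrays, since Sncg, Th and Prph had been seen to differ between the groups. Their differences between the groups are therefore given as a description, with no test. Islet RNA came from OF1 male mice, 10 weeks old, with 3 samples in the group given bisphenol A (BPA), an industrial chemical with oestrogen-like activity, and 3 in the vehicle group, each on its own Affymetrix array. For the BPA group, the series' design gives 100 µg/kg/day under the skin, as injections of 50 µg/kg, over 4 days, with islets taken 16 hours after the last one. Controls were given the carrier alone, 100 µL of tocopherol-stripped corn oil. The samples' own treatment protocol gives 2 days at that daily dose. The source name of each BPA sample instead has 1 nM over 48 hours, so the labels do not settle how the animals or islets were exposed. By their titles the samples are biological replicates, each from 3 independent experiments per the design, with the number of animals not stated. The p-values below measure only the spread between these samples, which may be partly technical.

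Islets are innervated by sympathetic, parasympathetic and sensory fibres and are wrapped by Schwann cells, the glia of peripheral nerves. Sympathetic neurons make noradrenaline in steps, the first by tyrosine hydroxylase (Th) and the last by dopamine beta-hydroxylase (Dbh). Their axons hold intermediate filaments built from peripherin (Prph) and neurofilament proteins (Nefl, Nefm). Sox10 is the transcription factor that specifies Schwann cells, Cdh19 encodes a cadherin of Schwann cells and their precursors, and Mbp encodes a myelin protein. Gamma-synuclein (Sncg) is a small soluble protein of peripheral neurons that is also made in fat cells. Th is not a pure nerve marker here, because some mouse beta cells make it, and the Mbp locus also gives rise to golli transcripts in cells without myelin.

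RefSeq promoter windows (build GRCm38.p6, 250 bases before to 50 after the gene's start) matched 4 of the 9 genes. They are shown for Sncg, Th and Prph, which had the largest BPA minus control differences of the 9 on their brightest probe sets, 5′ to 3′ on the gene's strand. Capitals mark matches on either strand to the cAMP response element (TGACGTCA), the half-site of the oestrogen response element (AGGTCA) or the TATA box (TATAAA), motifs whose letters do not overlap in these windows.
Sncg, minus strand, chr14:34374620-34374919: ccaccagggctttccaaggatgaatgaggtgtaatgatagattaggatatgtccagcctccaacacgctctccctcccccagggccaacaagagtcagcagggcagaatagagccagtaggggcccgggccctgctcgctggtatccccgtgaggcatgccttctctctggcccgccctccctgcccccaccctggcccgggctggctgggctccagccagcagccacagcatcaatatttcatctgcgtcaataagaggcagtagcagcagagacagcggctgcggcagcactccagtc
Th, minus strand, chr7:142899946-142900245: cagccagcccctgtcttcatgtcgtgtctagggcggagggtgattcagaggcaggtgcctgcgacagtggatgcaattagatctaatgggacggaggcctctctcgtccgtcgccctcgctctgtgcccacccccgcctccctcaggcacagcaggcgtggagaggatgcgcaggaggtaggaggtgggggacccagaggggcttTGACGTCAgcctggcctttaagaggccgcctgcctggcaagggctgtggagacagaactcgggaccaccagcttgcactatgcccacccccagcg
Prph, plus strand, chr15:99054924-99055223: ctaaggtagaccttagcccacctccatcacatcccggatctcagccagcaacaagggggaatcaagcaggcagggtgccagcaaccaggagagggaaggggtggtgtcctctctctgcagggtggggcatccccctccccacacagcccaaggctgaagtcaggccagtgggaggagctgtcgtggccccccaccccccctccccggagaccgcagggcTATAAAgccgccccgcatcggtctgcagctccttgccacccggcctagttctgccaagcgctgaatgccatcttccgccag

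The Th window held 1 cAMP response element, which starts 45 bases before the gene's start and is found in 1.79% of the 32851 windows in the table. The Prph window held 1 TATA box, 31 bases before the start (13.6% of windows). The Sncg window held none of the 3 motifs, nor did that of Dbh. The oestrogen half-site was in 16.3% of all windows and in 0 of these 4. A match is a stretch of letters and no measured binding site.

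The tissue label held: the insulin gene Ins2 read 15.24, 15.32 and 15.32 on the log2 scale in BPA arrays and 15.27 to 15.31 in controls, and Gcg, Sst, Ppy and Iapp averaged 13.77 to 15.10 in each group. Some features of the arrays moved with the groups or with single samples. The 3′ minus 5′ signal of the array's actin control transcript, a sign of RNA and labelling quality, was 2.61, 2.83 and 2.98 (log2) in BPA arrays and 3.35, 3.80 and 3.68 in controls, with no overlap. That of Gapdh was 2.58 to 2.99 in BPA arrays and 3.40 to 3.79 in controls. Markers of acinar cells, the exocrine cells that are carried along with islets, were lowest in control replicate 3, at -1.39 relative to the mean of the 6 arrays (8 genes tested of 11), and peaked at 0.90 in BPA replicate 1. BPA replicates 2 and 3 stood at 0.05 and -0.50, and control replicates 1 and 2 at 0.33 and 0.61. The part of these features in the results was not tested. In bulk RNA, fewer cells of a type and less RNA per cell cannot be told apart.

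Across the 9 genes, signal was higher on average after BPA on 19 of 24 probe sets and on 7 of the 9 brightest ones, where 54.9% of all probe sets other than array controls were higher. The median BPA minus control difference over the 9 brightest probe sets was 0.40 (log2), against 0.01 over the 22518 probe sets tested. Without control replicate 3 that median was 0.06. The groups did not overlap on 6 probe sets: BPA lay above control on 4 (Sncg, Th and 2 of Mbp) and below it on 2 (1 of Prph and 1 of Mbp). Over all 45037 probe sets the same held for 7.56% above and 3.96% below. The count of 4 became 9 without BPA replicate 2, 8 without control replicate 1 and 9 without control replicate 2. With those arrays left out BPA lay above control on 11.2%, 13.5% and 12% of all probe sets, in the same order, since fewer arrays leave less room for overlap. It was 5 without BPA replicate 1 (20.8%, against 12.8% of all probe sets) and 6 without BPA replicate 3 (25% against 16.7%). Without control replicate 3 it stayed at 4 (16.7% against 12.8%). In limma's moderated test over the 22518 probe sets brighter on average than the table's median (6.60), none passed an adjusted p under 0.05 (0% called, smallest adjusted p = 0.655). At an unadjusted p under 0.05 there were 1458, and the ordinary test without moderation gave 0 adjusted and 1446 unadjusted. Of the 24 probe sets, 19 passed that signal filter and 5 did not.

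**Figure D1:**
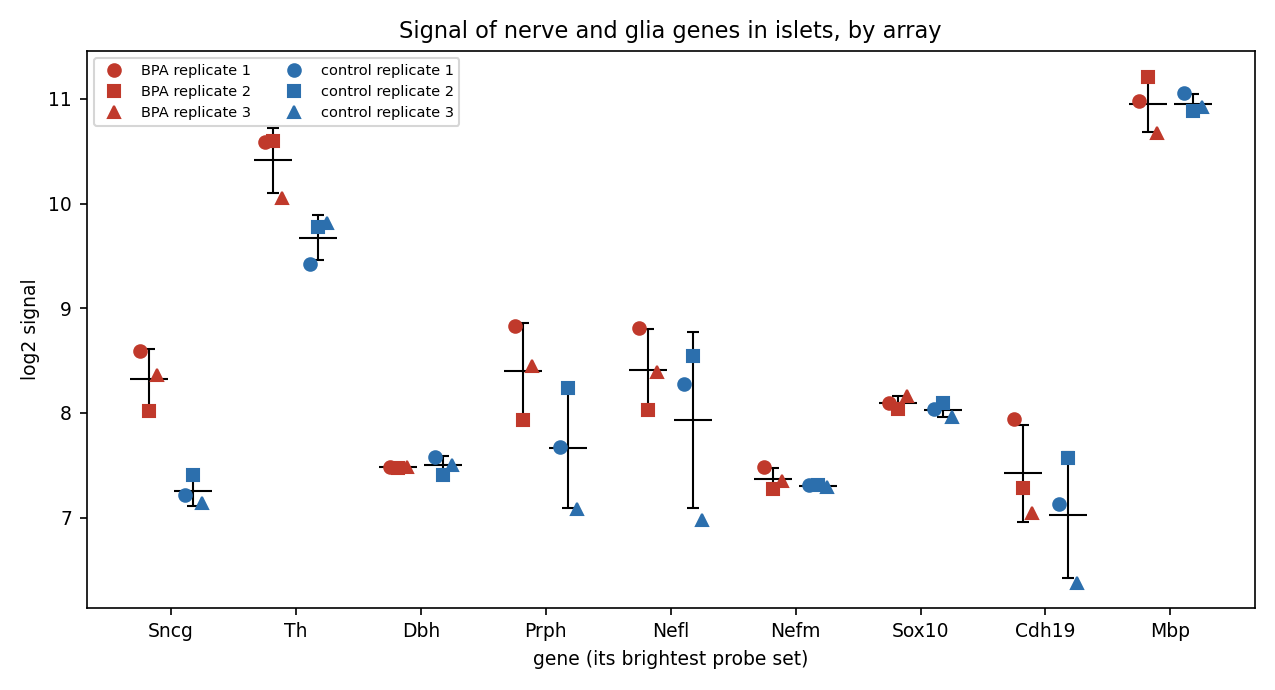
Log2 signal of the brightest probe set of each gene on the 6 arrays, with BPA left of control for each gene, the replicate shown by the symbol, and the black bars giving the group mean and SD. The 3 BPA arrays lie above the 3 control arrays for Sncg and Th, while Dbh, Nefm and Sox10 span at most 0.21 over the 6 arrays.

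Sncg, read by 1 probe set (1417788_at), showed the largest difference of the 9 genes. Its log2 signal was 8.59, 8.02 and 8.36 in BPA replicates 1 to 3, against 7.21, 7.41 and 7.14 in control replicates 1 to 3. The lowest BPA array lay 0.61 above the highest control array. The difference was 1.07 ± 0.17 (SE, n = 3 per group), or 2.10 times the control signal. With each array left out in turn it ran from 0.94 (without BPA replicate 1) to 1.22 (without BPA replicate 2), and with both replicate 3 arrays left out it was 1.00. Control replicate 3, where the acinar markers were lowest, was also the lowest array for Sncg. Sncb, which encodes beta-synuclein, a related protein of nerve endings, read 8.61 ± 0.11 in BPA arrays and 8.48 ± 0.13 in controls (SD, n = 3 per group), where limma gave a difference of 0.13 ± 0.13 (SE, adjusted p = 0.888). Of the markers of fat cells, where Sncg is also made, the adiponectin gene Adipoq lay below the filter, at 4.54 ± 0.18 in BPA arrays and 4.32 ± 0.11 in controls (SD, n = 3 per group), with overlapping groups. The 4 fat cell genes tested, of 9, had a mean of -0.15 to 0.09 relative to all arrays in the BPA group and -0.04 to 0.06 in controls. The rest of the 9, Adipoq among them, lay below the filter or had no probe set under their name. The list is therefore a weak measure of fat cells.

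Th, the first enzyme of catecholamine synthesis, was read by 1 probe set (1420546_at). Its log2 signal was 10.59, 10.59 and 10.06 in BPA arrays and 9.42, 9.78 and 9.81 in controls, at the 88.2th percentile of the table. BPA replicate 3 was 0.24 above the highest control, so the groups were closer to each other than those of Sncg. The difference was 0.74 ± 0.19 (SE, n = 3 per group), a ratio of 1.67, and with single arrays left out it ran from 0.62 (without control replicate 1) to 0.92 (without BPA replicate 3). With both replicate 3 arrays left out it was 0.99. Dbh, the enzyme that makes noradrenaline from dopamine, varied little. Its brightest probe set (1450670_at) read 7.49, 7.47 and 7.49 in BPA arrays and 7.58, 7.41 and 7.50 in controls, a difference of -0.02 ± 0.11 (SE). The other probe sets of Dbh differed by 0.06 ± 0.14 and 0.03 ± 0.14, with overlapping groups. The sign of each of these 3 changed under some of the settings tried, so no direction can be given for Dbh.

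Of the other catecholamine genes, 10 of 16 were tested and 0 passed in either direction (smallest adjusted p = 0.796). They were higher in 7 and lower in 3, with a median of 0.06, and 0 were without overlap. Over all probe sets 7.56% lay above and 3.96% below without overlap, so a 0 among 10 genes tells little. The transcription factor gene Hand2 differed by 0.38 ± 0.18 (SE, adjusted p = 0.796), Npy, the gene of a peptide that sympathetic fibres release with noradrenaline, by 0.29 ± 0.25 (0.877) and the receptor gene Ret by 0.13 ± 0.13 (0.888). Another probe set of Hand2 differed by -0.10, and a second one of Ret by 0.39.

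The filament genes had wide spreads within the groups. Prph (1422530_at) read 8.83, 7.93 and 8.45 in BPA arrays and 7.67, 8.23 and 7.09 in controls. The groups overlap, as control replicate 2 lay above BPA replicate 2. The difference of 0.74 ± 0.34 (SE) was as large as that of Th with a larger error, and was 0.45 without control replicate 3 and 0.43 without both replicate 3 arrays. The remaining 3 probe sets of Prph lay below the filter and differed by -0.20 to 0.06. On 1449796_at BPA was below control, at 5.92, 6.27 and 6.26 against 6.30, 6.41 and 6.33, a gap of 0.03.

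Nefl, the light neurofilament subunit, read 8.81, 8.03 and 8.39 in BPA arrays on its brightest probe set (1454672_at), and 8.28, 8.54 and 6.98 in controls. Its difference of 0.48 ± 0.42 (SE) rested on control replicate 3: without that array it was 0.0024. The second probe set (1426255_at) read 7.36, 7.05 and 7.48 in BPA arrays and 7.33, 7.23 and 6.65 in controls, and its difference of 0.23 ± 0.21 became 0.02 without control replicate 3. Nefm (1422520_at), the medium subunit, hardly varied: 7.49, 7.28 and 7.35 in BPA arrays against 7.31, 7.31 and 7.29 in controls (0.07 ± 0.11, SE).

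Of 16 other genes of the neuronal cytoskeleton and axon, 15 were tested and 0 passed in either direction (smallest adjusted p = 0.655). They were split, with 6 higher, 9 lower and a median of -0.03. Without overlap, BPA lay above control for 1 gene and below it for 2, where 7.56% and 3.96% of all probe sets did. Uchl1, which encodes a ubiquitin hydrolase abundant in neurons and endocrine cells, read 7.32, 6.90 and 7.41 in BPA arrays and 6.60, 6.68 and 6.44 in controls. The groups did not overlap, and limma gave 0.64 ± 0.16 (SE, adjusted p = 0.655). Ina, which encodes the neuronal filament protein alpha-internexin, lay the other way without overlap, at 9.69, 9.75 and 9.93 in BPA arrays and 10.13, 10.10 and 10.18 in controls (-0.34 ± 0.11, SE, adjusted p = 0.685). The microtubule protein gene Map1b differed by -0.52 ± 0.23 (0.791) on its brightest probe set and by up to 0.20 on others.

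**Figure D2:**
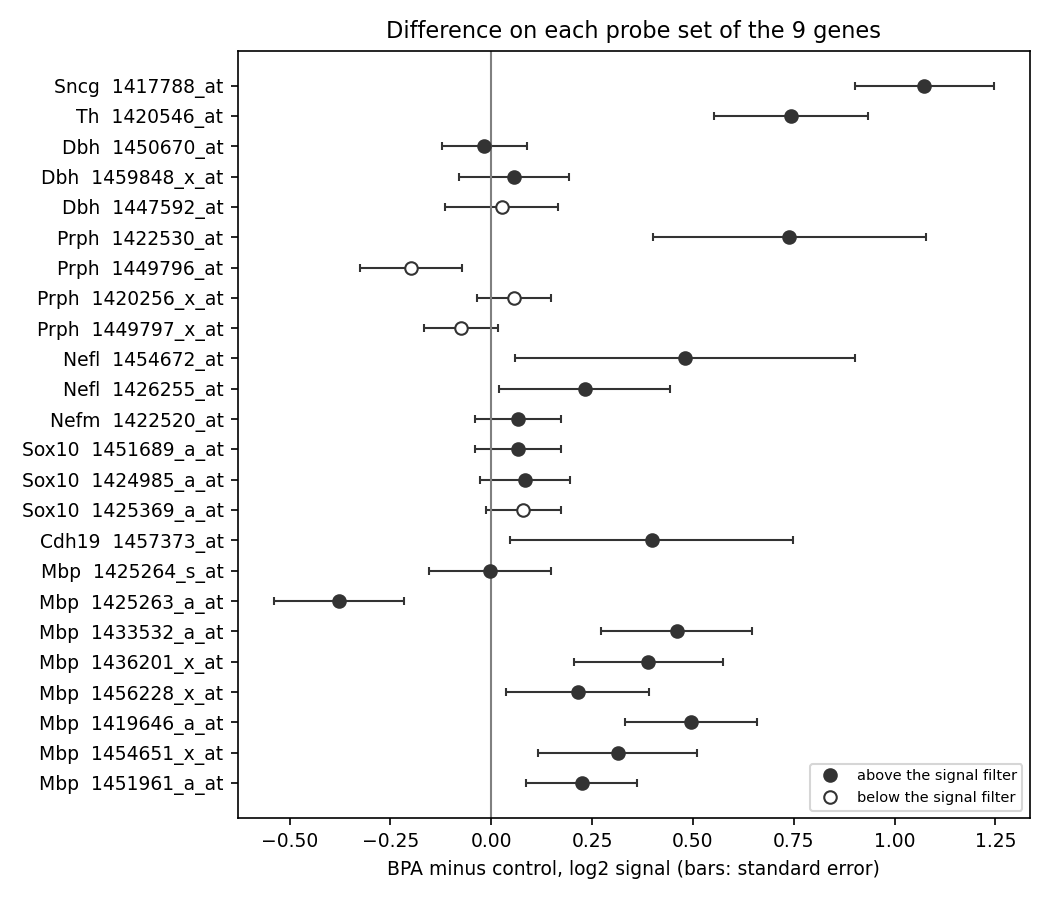
BPA minus control difference in log2 signal on each of the 24 probe sets, with bars of 1 standard error and open points for the 5 below the signal filter. The single probe sets of Sncg and Th stand at 1.07 and 0.74, those of Prph and Mbp fall on both sides of 0, and those of Sox10 and Dbh lie within 0.09 of 0.

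Among the Schwann cell genes, Sox10 and Cdh19 differed in how much they varied. Sox10 read 8.09, 8.04 and 8.16 in BPA arrays and 8.03, 8.09 and 7.96 in controls on its brightest probe set (1451689_a_at), and its 3 probe sets differed by 0.07, 0.08 and 0.08 with overlapping groups. Cdh19 (1457373_at) read 7.94, 7.28 and 7.04 in BPA arrays and 7.13, 7.57 and 6.38 in controls. Its difference of 0.40 ± 0.35 (SE) was 0.07 without control replicate 3 and 0.26 without both replicate 3 arrays. The range over the 6 arrays was 1.56 for Cdh19 and 0.20 for Sox10, where the median over tested probe sets was 0.51. Without detection calls, a nearly flat probe set such as those of Sox10, Nefm and Dbh cannot be told from one near background.

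Mbp had 8 probe sets, all above the filter, and they disagreed. The brightest (1425264_s_at, at the 93.5th percentile) read 10.98, 11.20 and 10.67 in BPA arrays and 11.05, 10.89 and 10.92 in controls, a difference of -0.0026 ± 0.15 (SE). On 1425263_a_at BPA lay below control, at 8.88, 8.72 and 8.99 against 9.18, 9.02 and 9.52 (-0.38 ± 0.16, SE, with a gap of 0.03). The other 6 were higher after BPA by 0.21 to 0.50. Without control replicate 3 the difference was 0.03 on 1456228_x_at, 0.10 on 1454651_x_at and 0.11 on 1451961_a_at, against 0.21, 0.31 and 0.22 with all arrays.

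The largest difference of Mbp was on 1419646_a_at, with 8.32, 8.47 and 8.00 in BPA arrays and 7.87, 7.87 and 7.57 in controls (0.50 ± 0.16, SE). On 1436201_x_at BPA arrays read 8.59, 8.62 and 8.62, above controls at 8.35, 8.49 and 7.83 (0.39 ± 0.18, SE), but this became 0.19 without control replicate 3. All of the 6 had their lowest signal in control replicate 3, the array with the highest signal on 1425263_a_at. The suffixes s and x mark probe sets that may also match other transcripts, and which Mbp or golli transcripts each one reads was not analysed here.

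Of 25 other Schwann cell and glia genes, 16 were tested and 0 passed in either direction (smallest adjusted p = 0.741), with 13 higher, 3 lower and a median of 0.24. That median was 0.04 without control replicate 3 and 0.40 without control replicate 2. Egr2, a transcription factor gene of myelination that is also an immediate early gene, differed by -0.59 ± 0.22 (SE, adjusted p = 0.741), the growth factor gene Gas6 by 0.37 ± 0.14 (0.746) and Fabp7, which encodes a fatty acid binding protein of glia, by 0.55 ± 0.30 (0.821). Fabp7 read 8.52, 8.28 and 8.55 in BPA arrays and 8.12, 8.38 and 7.19 in controls, again lowest in control replicate 3. The glial calcium-binding protein gene S100b read 6.93, 6.95 and 6.84 in BPA arrays against 6.79, 6.93 and 6.10 in controls (0.30 ± 0.22, SE, adjusted p = 0.855). A second probe set of Gas6 differed by -0.08, and a second one of S100b by 0.01.

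Control replicate 3 was the lowest of the 6 arrays for 12 of these 16 glia genes and for 15 of the 24 probe sets of the 9 genes, against 20.1% of tested probe sets and 22.1% of all. It was the lowest for all 8 acinar genes, 7 of 11 stellate cell and fibroblast genes, 4 of 10 immune cell genes and 0 of 7 endothelial genes. Relative to the 6 arrays, the glia list stood at 0.17, 0.13 and -0.0038 in BPA replicates 1 to 3 and at -0.0060, 0.12 and -0.41 in control replicates 1 to 3. Stellate cell and fibroblast markers stood at -0.02 to 0.58 in BPA arrays and -0.55 to 0.01 in controls (10 of 11 higher after BPA, median 0.28, or 0.09 without control replicate 3). Immune cell markers ran from -0.09 to 0.50 in BPA arrays and from -0.28 to 0.06 in controls (8 of 10 higher, median 0.22, or 0.06 without BPA replicate 1). The mean of the endothelial markers, of which 2 were higher and 5 lower after BPA, ran from -0.14 to 0.09 in the BPA group and from -0.05 to 0.06 in controls. In the stellate, immune and endothelial lists, 1 tested gene each lay above control without overlap and 0 below. Over all probe sets this held for 7.56% above and 3.96% below. None of the genes of these lists passed the threshold (smallest limma adjusted p = 0.747, 0.674 and 0.747, in the same order). Sncg peaked at 0.80 in BPA replicate 1, where the stellate and immune lists also had their top values, 0.58 and 0.50. Its bottom value of -0.65 fell in control replicate 3, as did theirs, -0.55 and -0.28. In BPA replicates 2 and 3 Sncg stood at 0.23 and 0.57. There the stellate list stood at -0.02 and 0.02 and the immune list at -0.09 and -0.01. The part of these cell types in the values of the 9 genes, Sncg and Th among them, was not tested. The counts by array were made after the values had been seen.

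**Figure D3:**
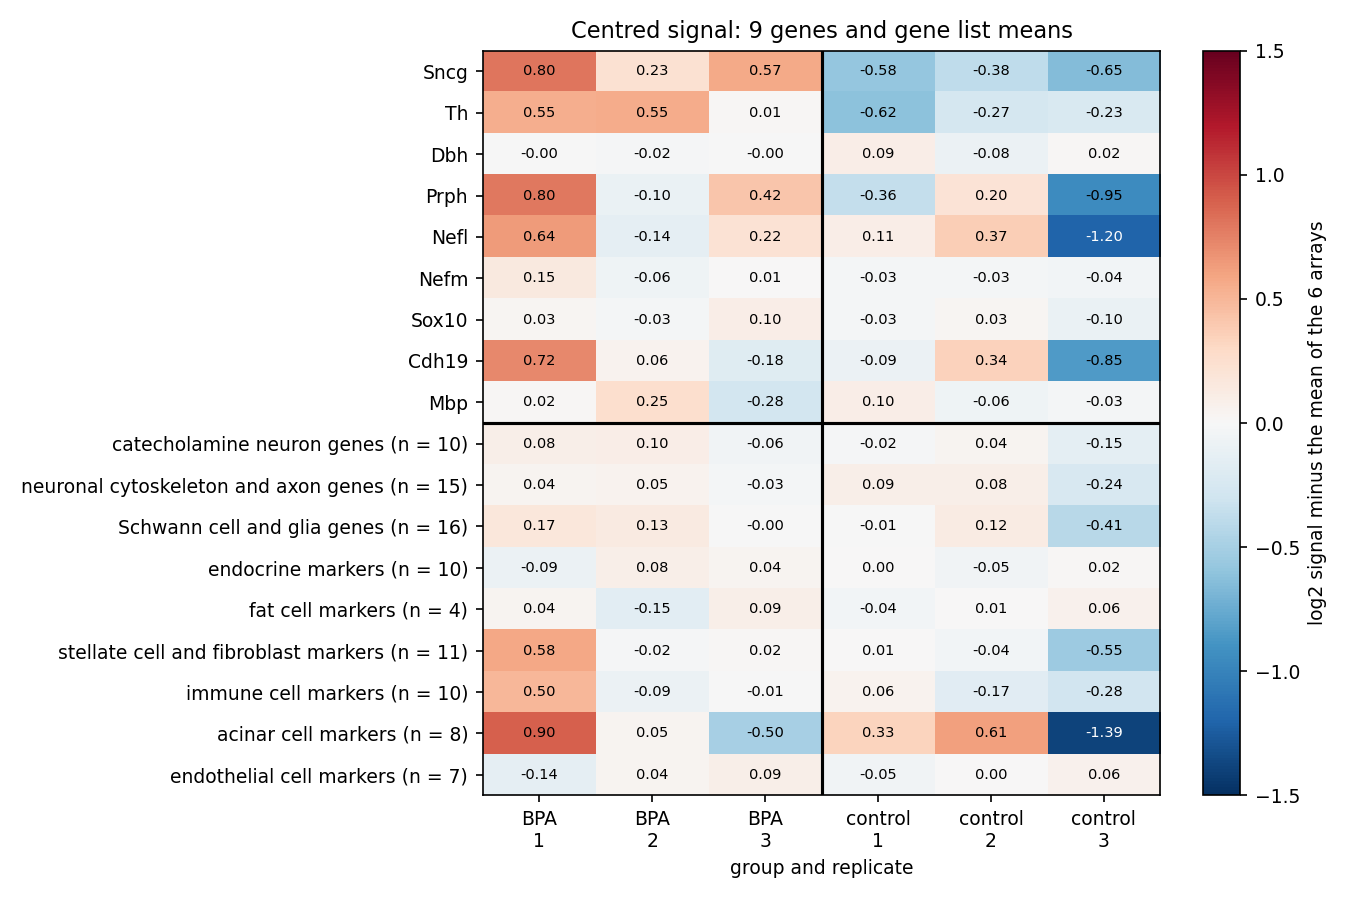
Log2 signal minus the mean of the 6 arrays for the brightest probe set of each of the 9 genes (upper block). The lower block gives the mean of each gene list other than the synucleins (n tested genes). BPA arrays are on the left in both. Control replicate 3 is low for Prph (-0.95), Nefl (-1.20), Cdh19 (-0.85) and the acinar list (-1.39), whereas Th is lowest in control replicate 1 (-0.62).

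The 9 genes did not follow 1 pattern over the arrays. Likeness was measured as the root mean square difference (RMS) between log2 profiles over the 6 arrays, each centred on its own mean, where 0 is identical. Prph, Nefl and Cdh19 lay nearest to each other among the genes that varied, at 0.25 for Prph with Nefl, 0.25 for Nefl with Cdh19 and 0.29 for Prph with Cdh19. All 3 had their top signal in BPA replicate 1 and their bottom signal in control replicate 3. Sncg lay 0.32 from Prph and 0.34 from Th, and 0.48 to 0.62 from the others. Th and Nefl were farther apart, at 0.63. Dbh, Nefm and Sox10 lay 0.07 to 0.09 apart, because none of them varied by more than 0.21.

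The 5 of 19385 tested probe sets of other genes nearest to Sncg were those of Lgals1 (RMS 0.11 and 0.20), which encodes galectin-1, Psmb3 (0.18) of the proteasome, Cyba (0.19) of the phagocyte oxidase and the receptor gene Notch2 (0.21), against a median of 0.58. The nearest, Lgals1, read 10.25, 9.35 and 9.92 in BPA arrays and 8.69, 9.04 and 8.65 in controls. Like Sncg it had BPA replicate 1 highest, BPA replicate 2 lowest of the BPA arrays, and control replicate 2 highest of the controls. Those nearest to Th were Oaf (0.10), the replication helicase gene Mcm7 (0.10), the nucleoside transporter gene Slc29a1 (0.11), the autophagy adaptor gene Sqstm1 (0.11) and Marf1 (0.12), against a median of 0.44. Being near to a profile that separates the groups, they separate or nearly separate them too, by 0.56 to 0.77 for those near Th and 0.74 to 1.05 for those near Sncg.

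**Figure D4:**
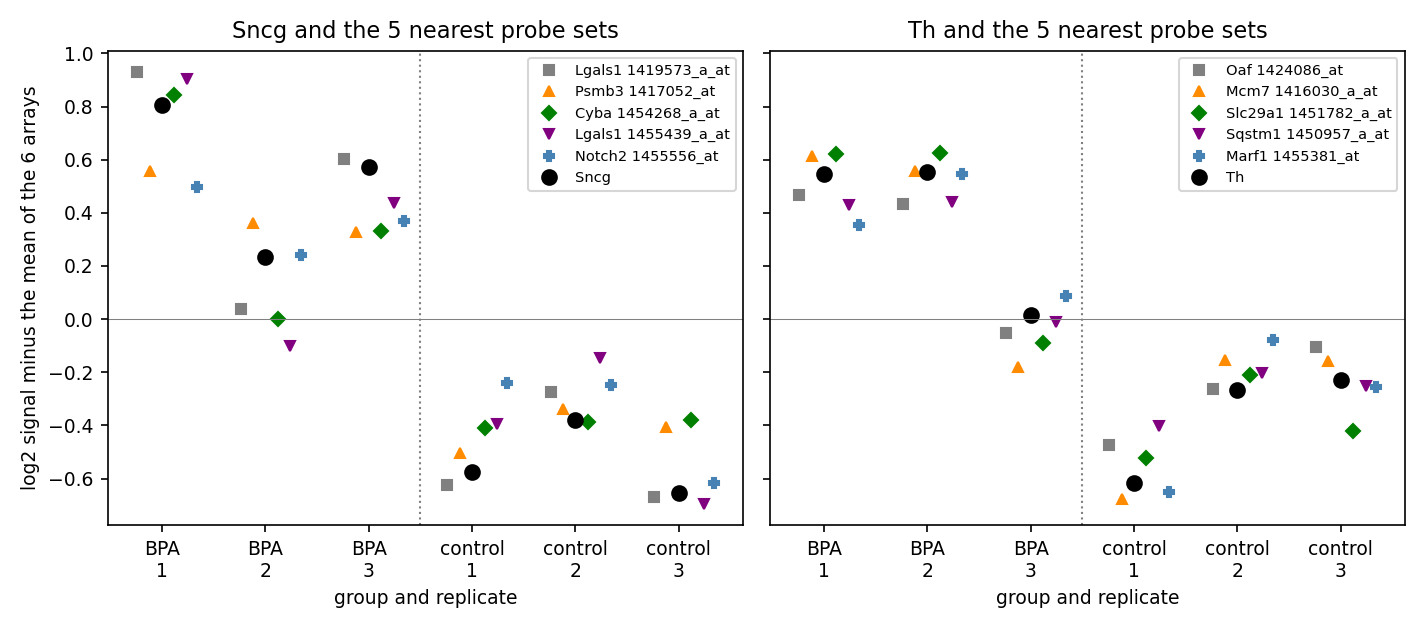
Log2 signal minus the mean of the 6 arrays for Sncg (left) and Th (right), in black, with the 5 probe sets of other genes whose profiles were nearest to each, BPA arrays left of the dotted line. Sncg and its neighbours are highest in BPA replicate 1, while Th and its neighbours are about equally high in BPA replicates 1 and 2 and lower in BPA replicate 3.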

How the data were processed

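The values are log2 signals, 1 for each probe set on each array, as deposited by the authors (array medians 6.55 to 6.65). The submitters' processing notes name MAS5, with no version. The lowest values, 2.95 to 3.04 per array, lie close together, so the probe summary and scaling behind the table are not settled. No detection calls were used here. Values were used as deposited, and the number of arrays limits their precision.

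Groups and replicate numbers came from the sample titles. The 64 array controls among the 45101 probe sets were left out. Of the remaining 45037, 34945 had 1 gene in the platform annotation, 932 several and 9160 none, and the symbols of 34884 were in the RefSeq gene table. Probe sets whose mean log2 signal was above the median were tested for BPA against control with limma 3.58.1 in R 4.3.3 (lmFit and trended eBayes, two-sided, adjusted by Benjamini-Hochberg over all 22518, threshold 0.05), which was tested on simulated data. SEs are limma's. Those of the 9 genes' dim probe sets came from a fit without the filter. No p is given for the 9 genes. The 9 genes, the 10 lists (122 genes, 109 named on the array, 92 tested, by their brightest tested probe set; the others were not analysed here) and the tests were chosen with earlier results of these data known. Non-members named are the 3 with the smallest p of a list, the 5 nearest in profile to Sncg or Th, and fixed markers; lists beside the nerve and glia ones are given by counts.

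Replicate numbers were checked for pairing by the correlation of deviations from the group means over the tested probe sets: 0.48, 0.08 and 0.71 for replicates 1, 2 and 3, so they were not treated as pairs. The replicate 3 arrays were alike across the groups. Over all probe sets, BPA replicate 3 correlated at 0.993 with control replicate 3, but at 0.982 and 0.983 with BPA replicates 1 and 2. What these arrays share was not tested. Alternatives were quantile or median scaling, other filters and moderations, the replicate block, arrays left out, and averaging the probe sets of each gene. Figures were drawn with matplotlib 3.10.9 in Python 3.11.15.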

Additional observations from a re-analysis of the deposited data

How the results depend on the processing

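No probe set passed the threshold in any of 15 alternatives (0 in each, smallest adjusted p = 0.181, and 789 to 3162 at an unadjusted p under 0.05). No list gene passed either. With the replicate number as a block (replicate block) 0 passed, with 3042 at an unadjusted p under 0.05; BPA replicate 2 deviated more like control replicate 1 (0.40) than like control replicate 2 (0.08). The count of probe sets of the 9 genes with BPA above control, 4, ran from 4 to 9 with each array left out. The share of all probe sets rose from 7.56% to between 11.2% and 16.7% in the same settings. Of the 24 probe sets, 17 to 21 were higher after BPA in these settings. The differences of Sncg, Th and the brightest probe sets of Prph, Nefl, Nefm, Sox10 and Cdh19 kept their sign in all 10 alternatives each. Those of Nefl, Cdh19 and the glia list came near 0 without control replicate 3. Without both replicate 3 arrays they were 0.01, 0.26 and 0.10, in the same order. The replicate block is among these 10 and leaves each difference as it is, so it adds no check of sign. The signs of Dbh, of the brightest probe set of Mbp and of the second of Nefl (-0.07 without both replicate 3 arrays) did not hold. The median of the neuronal cytoskeleton list ran from -0.14 to 0.07. That of acinar markers turned to -0.29 without control replicate 3, and was -0.02 without both replicate 3 arrays. Dim probe sets limit what Prph's other probe sets can show.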
